A study of Mus musculus with 6 samples.

Results

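The PI3K, AKT and mTOR pathway was followed through 34 of its genes in whole bone marrow of mice with and without nuclear myosin 1 (NM1). The genes were taken by symbol from a fixed list, without a filter on their values. That list was drawn up with earlier results of these data known. Of the 34, 20 encode proteins that carry the signal forward (activators) and 10 encode inhibitors. The other 4 encode effectors that an active pathway holds back (Ulk1, Tfeb, Foxo1 and Foxo3). All 34 were found among the 46603 genes counted, and all 34 were among the 15069 genes with enough counts to be tested. No member passed the test between genotypes, and the 95% interval of every member's difference lay inside 2-fold in either direction.

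NM1 is the nuclear isoform of myosin 1C, an unconventional motor protein whose gene is Myo1c. The 6 mice were C57/Bl6 animals of 8 months, 3 NM1 KO and 3 NM1 WT, with no treatment named in the labels, and the knockout line is credited there to Venit and co-workers. Marrow was spun out of the femurs and tibiae, 1 mouse per library, and no cell type was sorted. The labels give no sex.

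In cells, growth factor and cytokine receptors recruit PI3K, which makes the membrane lipid PIP3; PDK1 and mTORC2 then activate AKT. AKT shuts off the TSC complex and the FOXO transcription factors, and the freed GTPase Rheb turns on the kinase complex mTORC1 at the lysosome when Rag GTPases report amino acids. mTORC1 drives translation through S6 kinase and the 4E-BPs and holds back autophagy through ULK1 and TFEB. In blood-forming tissue the pathway is known for control of stem cell quiescence, B cell development and neutrophil migration. Most of this control is by phosphorylation and location of the proteins, which RNA counts do not measure.

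Library totals ran from 15145052 to 22618802 counts, each NM1 KO library being deeper than each NM1 WT library, and 1 CPM (counts scaled to library size with TMM factors) stood for 14.7 to 23 counts. Myo1c (ENSMUSG00000017774, chromosome 11, 75650504 to 75673910, GRCm38) had 73.8, 59.1 and 59.7 CPM in NM1 KO 1 to 3 and 89.8, 115 and 102 CPM in NM1 WT 1 to 3. Its log2 fold change, NM1 KO over NM1 WT, was -0.67 (SE 0.14, adjusted p = 0.0516 in edgeR's quasi-likelihood test). Reads of every isoform are summed in that value, which therefore cannot test the knockout of NM1 as such. Y-linked genes summed to 202, 175 and 155 CPM in NM1 KO 1, NM1 KO 2 and NM1 WT 2 and to 0 in the other three libraries, so the genotypes hold unequal numbers of each kind. Summed markers of megakaryocytes and platelets were 2044 to 4431 CPM in NM1 KO and 995 to 1308 CPM in NM1 WT, with 11 of 14 past the threshold. Stromal and osteoblast markers summed to 1413 to 2591 against 710 to 799 CPM, with 6 of 12 higher, and those of eosinophils, basophils and mast cells to 941 to 1325 against 2330 to 3625 CPM, with 4 of 12 lower. Neutrophil markers summed to 36320 to 46460 against 45850 to 62090 CPM and erythroid markers to 60340 to 66820 against 50870 to 66090 CPM, with 0 of 12 past the threshold in each list and 7 and 6 at an unadjusted p under 0.05 (edgeR). Skeletal muscle markers summed to 58.2 to 74.6 against 14.5 to 24 CPM, with 4 of 7 tested higher and 3 of the 10 listed at 0 in all NM1 WT libraries. The part of these cell types in the values below was not tested. In unsorted marrow, fewer cells that express a gene and less of its RNA per cell cannot be told apart.

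At an adjusted p under 0.05 edgeR's quasi-likelihood test called 117 of the 15069 genes, or 0.776%, and 0 of the 34 members. DESeq2 and limma-voom also called 0 members. At an unadjusted p under 0.05 there were 6 members, 4 higher and 2 lower in NM1 KO, in a background where 16.8% of tested genes passed that mark. DESeq2 and limma-voom also gave 6 each, but single libraries moved the edgeR count: leaving out NM1 KO 2 gave 1 member, leaving out NM1 WT 1 gave 2, and leaving out NM1 WT 2 gave 8. Values did not overlap between genotypes for 7 members, beside 20.5% of all tested genes. Of these 7 members 6 were higher in NM1 KO, beside 1620 of the 3089 tested genes without overlap. Of the 34, 19 had a log2 fold change above 0, beside 50.2% of all genes. Each of these shares was close to its background, except that the 7 members without overlap leaned more to higher values. That lean was not tested.

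The differences were small and well bounded. The median size of a log2 fold change was 0.13 over the members and 0.24 over all tested genes, with median standard errors of 0.16 and 0.22. Intervals over the members reached from -0.78 at the lowest bound to 0.68 at the highest, 28 of 34 included 0, and 23 of 34 lay inside 1.5-fold. The members were also steady from mouse to mouse: their median coefficients of variation were 10.2% (NM1 KO) and 11.9% (NM1 WT), against 16.2% and 17.5% over all tested genes. No member was scarce, the lowest value being 13.7 CPM, and the lowest count 215. The set of all tested genes includes far scarcer ones, and no comparison with genes of like level was made. The contrasts with all genes therefore cannot be read as a trait of the pathway. The precision given here is for these library totals, in which nearly all low counts were even, so that read pairs appear to have been counted as 2. In a fit on halved counts the standard errors of Pik3cd, Pik3r1 and Rps6kb1 were 0.153, 0.123 and 0.135. They were 0.153, 0.124 and 0.137 in the main fit.

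**Figure D1:**
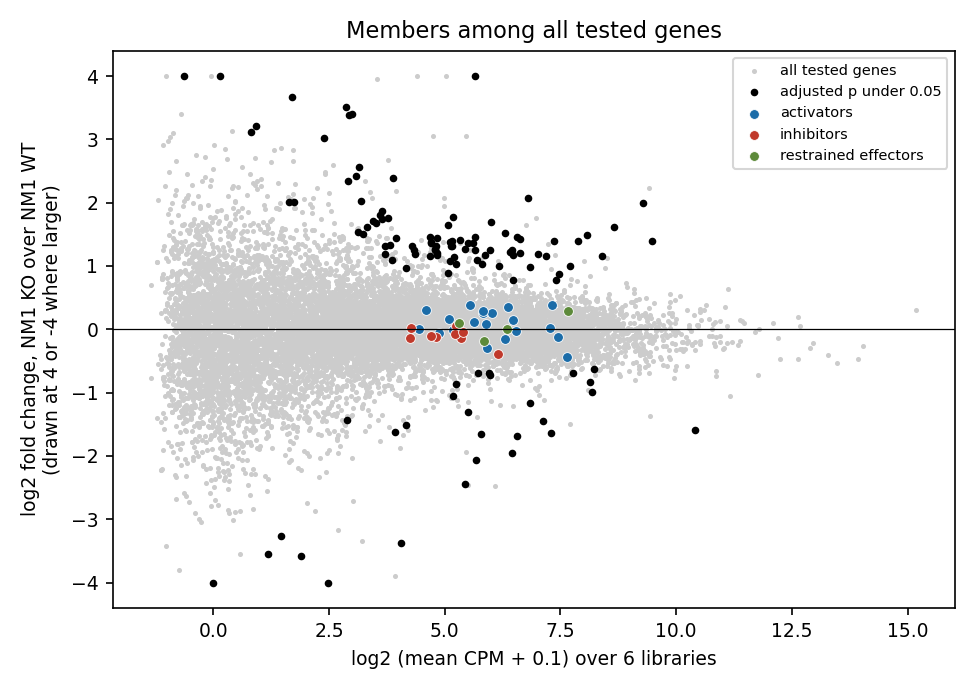
Log2 fold change (NM1 KO over NM1 WT; larger values drawn at 4 or -4) against log2 mean CPM over 6 libraries for all tested genes in grey, with genes past adjusted p under 0.05 in black and the 34 members coloured by role. The members sit at middle to high levels in a band between -0.44 and 0.38, and no black point is a member.

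Taken by role, the activators had a median log2 fold change of 0.10, with 13 above 0 and 7 below, the inhibitors one of -0.09, with 3 above and 7 below, and the effectors held back by the pathway one of 0.05, with 3 above and 1 below. The median of all tested genes was 0.00185. Mean log2 CPM over the activators was 6.06, 6.02 and 6.04 in NM1 KO 1 to 3 and 5.94, 6.06 and 5.86 in NM1 WT 1 to 3, so NM1 WT 2 lay at the level of the NM1 KO libraries. Over the inhibitors it was 5.13, 4.91 and 4.96 against 5.10, 5.15 and 5.04. Over the held-back effectors it was 6.36, 6.20 and 6.37 against 6.31, 6.33 and 6.15. The genotypes overlapped in all 3 scores. With 1 library left out the median of the activators ran from 0.0563 (without NM1 WT 3) to 0.187 (without NM1 WT 2) and that of the inhibitors from -0.165 (without NM1 KO 1) to -0.0416 (without NM1 KO 2). That of the held-back effectors ran from -0.00865 (without NM1 WT 3), the opposite sign, to 0.107 (without NM1 KO 2).

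**Figure D2:**
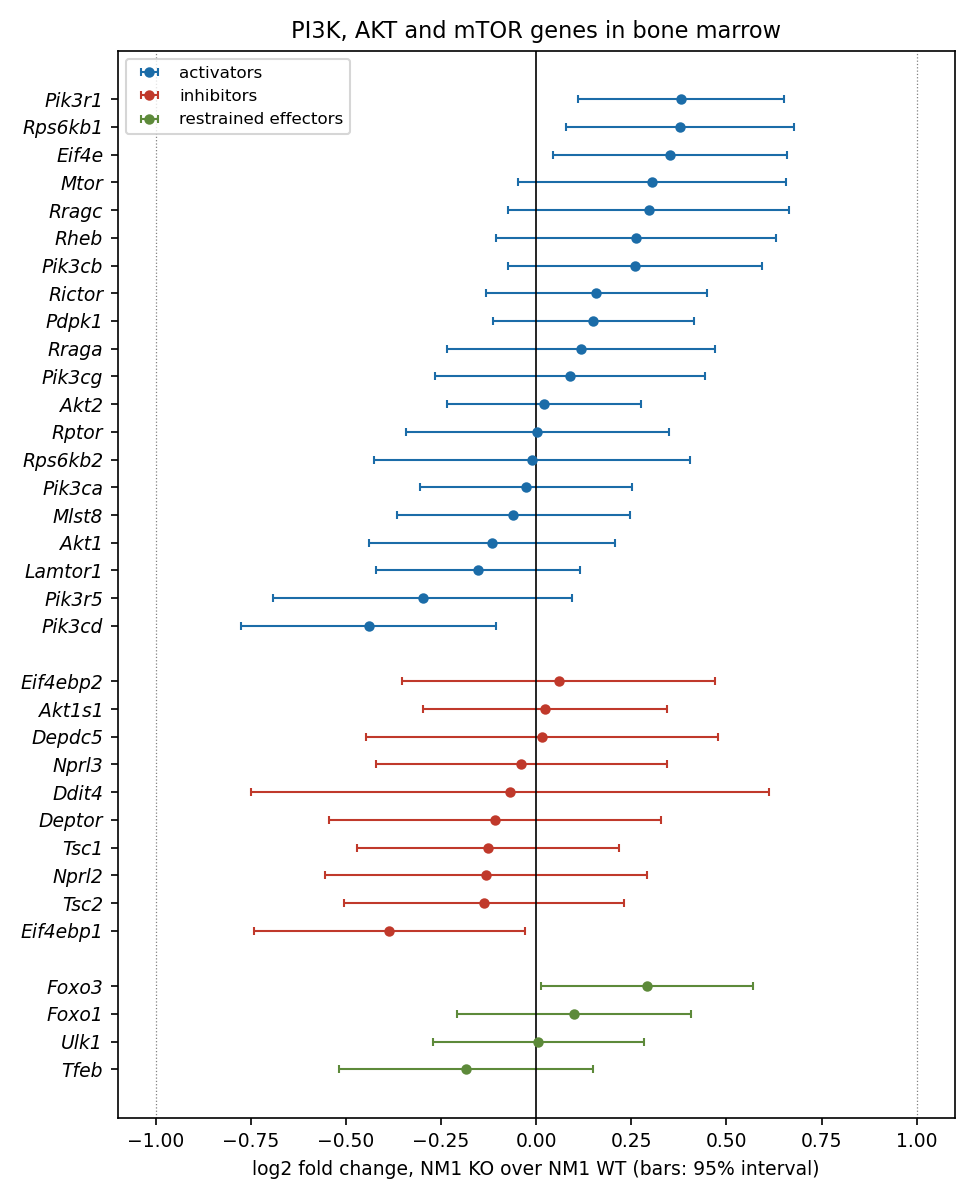
Log2 fold change, NM1 KO over NM1 WT, of each member as a point with its 95% interval as a bar, grouped into activators, inhibitors and effectors held back by the pathway; dotted lines mark 2-fold. All bars stay inside the dotted lines, and 6 of 34 exclude 0: Pik3r1, Rps6kb1, Eif4e, Pik3cd, Eif4ebp1 and Foxo3.

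PI3K itself is a pair of a catalytic and a regulatory subunit. Pik3cd encodes p110-delta, the catalytic subunit enriched in white blood cells (ENSMUSG00000039936, chromosome 4, 149649168 to 149702571). It stood at 200, 133 and 174 CPM in NM1 KO 1 to 3 and at 220, 247 and 220 CPM in NM1 WT 1 to 3. Every NM1 KO library lay below every NM1 WT library. The log2 fold change of -0.44 (SE 0.15, 95% interval -0.78 to -0.11) did not pass (adjusted p = 0.183, edgeR), and it was -0.291 without NM1 KO 2.

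Pik3r1, the gene of the p85-alpha regulatory subunit that stabilises the class IA catalytic subunits and holds them idle until a receptor is engaged (ENSMUSG00000041417, chromosome 13, 101680563 to 101768217), lay the other way. It had 166, 201 and 171 CPM in NM1 KO and 139, 143 and 132 CPM in NM1 WT, with no overlap. This gave a log2 fold change of 0.38 (SE 0.12, 95% interval 0.11 to 0.65), which did not pass either (adjusted p = 0.161, edgeR), though it was the smallest adjusted p of the 34. The other catalytic genes were Pik3ca (p110-alpha), Pik3cb (p110-beta) and Pik3cg (p110-gamma, used downstream of G-protein coupled receptors). They had log2 fold changes of -0.03, 0.26 and 0.09. Pik3r5, which encodes the p101 partner of p110-gamma, had 64.1, 46.5 and 50.6 CPM against 62.6, 82.8 and 52.8 CPM, which gave -0.30 on the log2 scale (SE 0.18, adjusted p = 0.436, edgeR), and -0.0976 without NM1 WT 2. It lies on chromosome 11, 7.22 Mb from Myo1c. Pik3r6, the p84 partner of p110-gamma and no member, was at 45.0, 27.7 and 38.7 against 57.7, 50.7 and 60.7 CPM, or -0.60 on the log2 scale (SE 0.18, adjusted p = 0.132, edgeR).

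Levels of partner genes, meaning here genes of the same family or step, were also compared as shares, after division by exon length. A share within a library does not depend on library scaling. Pik3cd made up 55.2%, 44.6% and 52.0% of the summed CPM per kilobase of the 4 catalytic genes in NM1 KO and 59.5%, 60.4% and 60.5% in NM1 WT. The means were 50.6 ± 5.43% and 60.1 ± 0.537% (SD, n = 3 each; two-sided exact permutation p = 0.1). Pik3cb took 14.5%, 20.1% and 14.9% against 12.4%, 12.8% and 10.1% (exact permutation p = 0.1), and the shares of Pik3ca and Pik3cg overlapped between genotypes. In both genotypes Pik3cd thus had the highest level per length of the catalytic genes, and its share was lower by 9.53 percentage points in the NM1 KO mean. Pik3r1 made up 58.8%, 70.4% and 65.1% of Pik3r1 and Pik3r5 together in NM1 KO and 55.0%, 48.7% and 57.9% in NM1 WT (exact permutation p = 0.1). The proteins of these genes serve different catalytic subunits, and other regulatory genes such as Pik3r6 were left out. This share therefore sets the levels of both genes side by side and is not a part of a common regulatory pool. With 3 mice against 3 an exact p cannot go below 0.1, so none of the 16 shares compared in 7 families could pass 0.05.

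**Figure D3:**
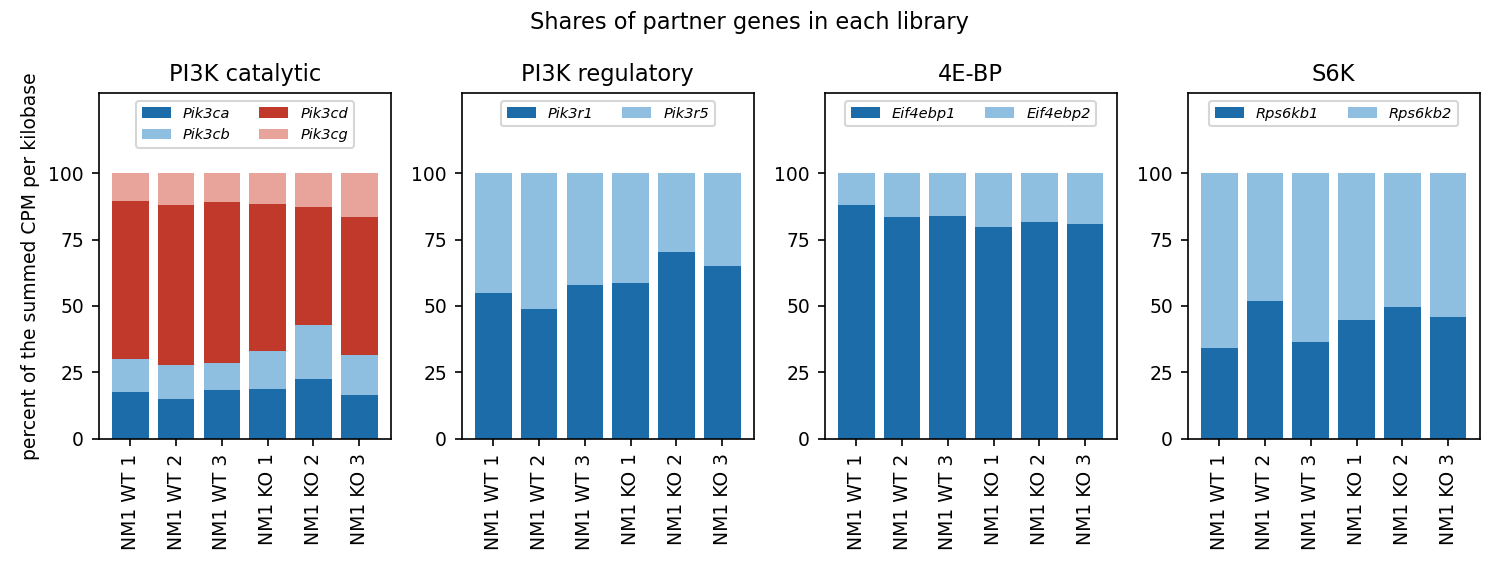
Shares of partner genes in each library, in percent of their summed CPM per kilobase of exon, for the PI3K catalytic and regulatory subunits, the 4E-BPs and the S6 kinases; each stacked bar is 1 library. The Pik3cd band spans 44.6% to 55.2% in NM1 KO and 59.5% to 60.5% in NM1 WT, and the S6 kinase shares overlap.

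The kinases just after PI3K were even between genotypes. Pdpk1, which encodes PDK1, had a log2 fold change of 0.15, Akt1 of -0.12 and Akt2 of 0.02, and the smallest adjusted p of these was 0.576 (edgeR). Their intervals were -0.11 to 0.41, -0.44 to 0.21 and -0.23 to 0.28, all inside 1.5-fold. Akt2 was among the steadiest members, with 158, 153 and 158 CPM in NM1 KO and 160, 161 and 142 CPM in NM1 WT. Akt1 spread wider, with 168, 151 and 185 CPM against 185, 212 and 150 CPM. Akt1 was the member with the highest level per length in NM1 WT, at 44.4 CPM per kilobase, ahead of Pik3cd and Eif4ebp1 at 36.6 each. Akt1 made up 65.0 ± 1.93% of Akt1 and Akt2 together in NM1 KO and 67.0 ± 2.48% in NM1 WT (SD, n = 3 each; exact permutation p = 0.5).

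Tsc1 and Tsc2 encode the scaffold and the GTPase-activating subunit of the TSC complex, the brake on Rheb. Their log2 fold changes were -0.13 and -0.14. Tsc1 ran from 24.4 to 29.2 CPM in NM1 KO and from 26.7 to 33.8 CPM in NM1 WT, and Tsc2 from 31.4 to 46.6 and from 39.7 to 48.3 CPM, so both overlapped. Rheb had 67.2, 80.7 and 64.9 CPM in NM1 KO and 50.02, 74.9 and 52.5 CPM in NM1 WT, or 0.26 on the log2 scale (SE 0.17, adjusted p = 0.468, edgeR). NM1 WT 2 was the NM1 WT library that overlapped, and without it the value was 0.474. Tsc2 shares 693 exon bases with Pkd1 on the opposite strand, and the strand setting of the counts is not given in the sources used here, so reads there cannot be told apart.

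Mtor, the kinase of both complexes (ENSMUSG00000028991, chromosome 4, 148448611 to 148557683), had 24.6, 25.5 and 30.1 CPM in NM1 KO and 22.9, 19.5 and 22.6 CPM in NM1 WT. All NM1 KO values were higher, with a log2 fold change of 0.30 (SE 0.16, 95% interval -0.047 to 0.66, adjusted p = 0.366, edgeR). Rictor, the scaffold that defines mTORC2 (ENSMUSG00000050310, chromosome 15, 6708379 to 6800401), had 36.3, 35.2 and 35.6 CPM against 32.1, 32.2 and 31.7 CPM. These were among the tightest values of all members, and they did not overlap, yet the log2 fold change was 0.16 (SE 0.13, 95% interval -0.13 to 0.45, adjusted p = 0.596, edgeR), since the test takes part of its spread from all genes. Rptor, the scaffold that defines mTORC1, had a log2 fold change of 0.00270, with 22.2, 20.6 and 22.4 against 23.8, 19.9 and 21.4 CPM. Mlst8, the subunit common to both complexes, had -0.06, and the inhibitory subunits Akt1s1 (PRAS40) and Deptor had 0.02 and -0.11. Per length, Rptor, Depdc5, Rictor and Mtor were the lowest members, at 1.61, 1.62, 1.89 and 2.14 CPM per kilobase in NM1 WT.

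Among the substrates of mTORC1, Rps6kb1 encodes S6 kinase 1, which promotes ribosome production and translation (ENSMUSG00000020516, chromosome 11, 86498871 to 86544805). It had 50.8, 54.1 and 52.1 CPM in NM1 KO and 36.7, 45.6 and 38.4 CPM in NM1 WT. All NM1 KO values were higher, and the log2 fold change was 0.38 (SE 0.14, 95% interval 0.079 to 0.68, adjusted p = 0.196, edgeR). The gene lies 10.8 Mb from Myo1c and shares 155 exon bases with Rnft1 on the opposite strand. Rps6kb2, the gene of S6 kinase 2, had a log2 fold change of -0.01.

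Eif4e encodes the cap-binding factor that starts translation (ENSMUSG00000028156, chromosome 3, 138526179 to 138559696). It had 83.4, 105 and 88.2 CPM in NM1 KO and 64.3, 82.4 and 69.8 CPM in NM1 WT, without overlap, though NM1 KO 1 and NM1 WT 2 nearly met. Its log2 fold change was 0.35 (SE 0.14, 95% interval 0.044 to 0.66, adjusted p = 0.239, edgeR). Eif4ebp1, the gene of the 4E-BP1 protein that sequesters eIF4E until mTORC1 phosphorylates it (ENSMUSG00000031490, chromosome 8, 27260329 to 27276674), had 54.3, 54.5 and 75.6 CPM against 86.5, 86.6 and 67.8 CPM. NM1 KO 3 lay above NM1 WT 3, so the genotypes overlapped; the log2 fold change was -0.39 (SE 0.16, 95% interval -0.74 to -0.031, adjusted p = 0.262, edgeR). Eif4ebp2, which encodes 4E-BP2, had a log2 fold change of 0.06. Eif4ebp1 made up 79.9%, 81.7% and 80.9% of the pair per length in NM1 KO and 88.1%, 83.5% and 83.8% in NM1 WT, without overlap (exact permutation p = 0.1). The factor and its inhibitor thus differed with opposite signs, and neither difference passed over all genes.

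**Figure D4:**
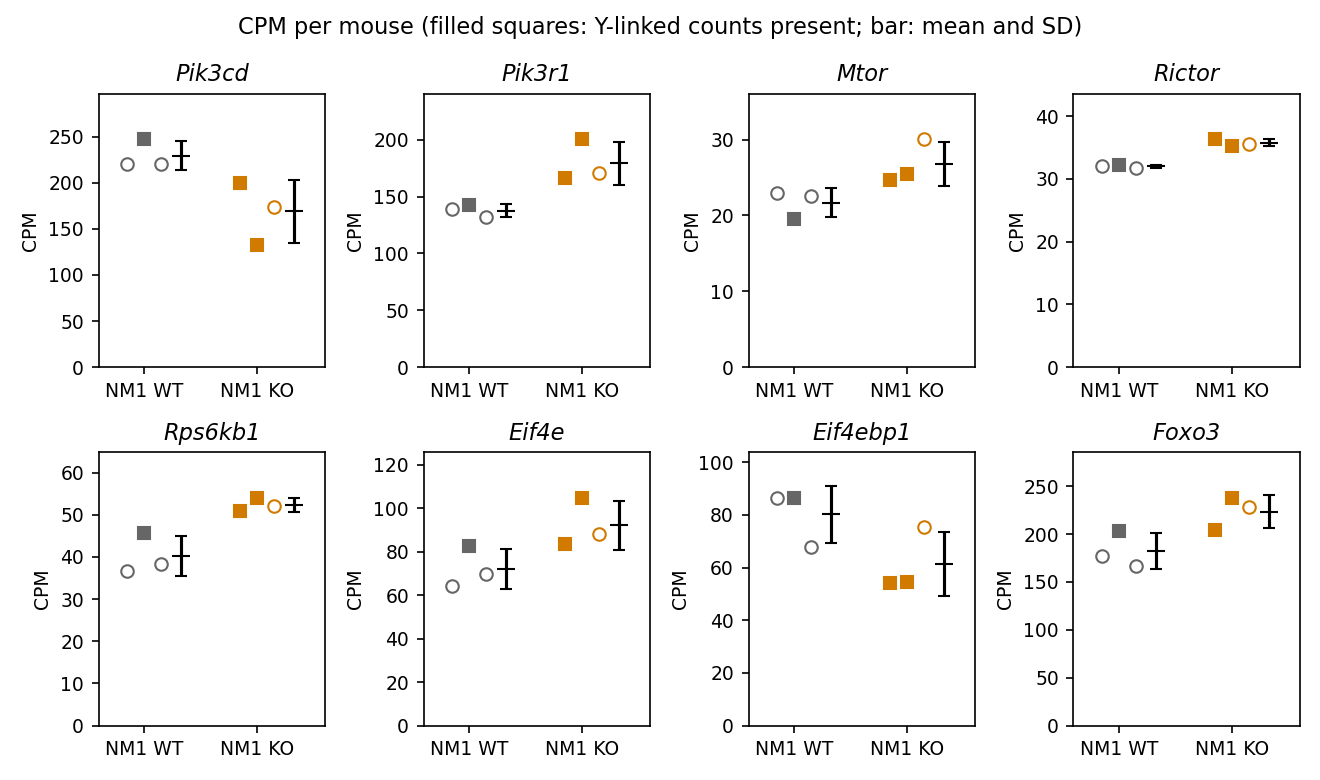
CPM in each mouse for Pik3cd, Pik3r1, Mtor, Rictor, Rps6kb1, Eif4e, Eif4ebp1 and Foxo3, with NM1 WT in grey and NM1 KO in orange, filled squares for libraries with Y-linked counts, open circles for those without, and a bar for the mean and SD. The genotypes are apart in all panels but that of Eif4ebp1, and the gaps are narrow beside the spread for Eif4e and Foxo3.

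The effectors that AKT and mTORC1 hold back were led by Foxo3, a transcription factor known for quiescence of blood stem cells (ENSMUSG00000048756, chromosome 10, 42181841 to 42276755). It had 205, 238 and 228 CPM in NM1 KO and 177, 203 and 167 CPM in NM1 WT. NM1 KO 1 and NM1 WT 2 came within a few CPM of each other but did not overlap, and the log2 fold change was 0.29 (SE 0.13, 95% interval 0.014 to 0.57, adjusted p = 0.277, edgeR). Foxo1, the related factor of lymphoid cells, had 0.10; Foxo3 made up 86.1 ± 2.27% of the 2 per length in NM1 KO and 84.4 ± 0.897% in NM1 WT (SD, n = 3 each; exact permutation p = 0.4). Ulk1, the kinase that starts autophagy, had a log2 fold change of 0.00590, and Tfeb, the regulator of lysosomal genes, one of -0.19. None of these effectors passed. Foxo1 lay between 36.5 and 45.6 CPM in NM1 KO and between 37.0 and 39.6 CPM in NM1 WT. Tfeb had 61.3, 42.1 and 57.4 CPM against 63.8, 61.5 and 57.5 CPM, its 1 low value being that of NM1 KO 2, the library in which Pik3cd was also lowest.

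The amino acid input runs through Rag GTPases on the lysosome and the GATOR1 complex that switches them off. Rraga and Rragc encode RagA and RagC, and their log2 fold changes were 0.12 and 0.30. Rragc had 62.3, 66.1 and 57.6 CPM in NM1 KO and 47.3, 64.2 and 40.0 CPM in NM1 WT, with NM1 WT 2 again inside the NM1 KO range; its value was 0.511 without NM1 WT 2 and 0.147 without NM1 WT 3. Lamtor1, the lysosomal anchor of the Rags, had a log2 fold change of -0.15. It had 80.7, 68.4 and 75.5 CPM in NM1 KO and 85.2, 86.2 and 78.1 CPM in NM1 WT, and only NM1 KO 1 reached into the NM1 WT range. The GATOR1 genes Depdc5, Nprl2 and Nprl3 had 0.02, -0.13 and -0.04, and all 6 genes had overlapping genotypes. Nprl3 shares 1340 exon bases with Mpg on the opposite strand.

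Where a promoter could be read, the E-box CACGTG was searched for, since TFEB, itself a member, and MYC are known to bind sites with these letters. RefSeq (GRCm38.p6) gave a 300-base window, 250 bases before the start and 50 after it, for 31 of the 34 members. The E-box, which is its own reverse complement, was in 4 of 31 member windows (12.9%) and in 8.09% of the windows of 27025 genes. The sites are shown with 12 bases on either side, 5′ to 3′ on the gene's strand, and with the E-box in capitals.
Eif4e, chr3:138527028-138527057 (plus strand): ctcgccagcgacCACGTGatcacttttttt
Eif4e, chr3:138527192-138527221 (plus strand): ggacacgtccgtCACGTGggcaggagccgg
Rragc, chr4:123917309-123917338 (plus strand): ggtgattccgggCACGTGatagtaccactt
Rheb, chr5:24842440-24842469 (minus strand): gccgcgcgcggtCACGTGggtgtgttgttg
Lamtor1, chr7:101905757-101905786 (plus strand): ctgccttcctatCACGTGccgcgggtccgc
The sites end 222 and 58 bases before the RefSeq start of Eif4e, 106 before that of Rragc, 90 before that of Rheb and 62 before that of Lamtor1. In the GENCODE M21 models those of Eif4e and Rheb, whose models start further upstream than in RefSeq, fall in a 5′ untranslated exon, that of Lamtor1 lies inside Tomt on the opposite strand, and that of Rragc in no gene. Of these genes Eif4e, Rragc and Rheb had log2 fold changes of 0.35, 0.30 and 0.26 and Lamtor1 one of -0.15, none past the test. The FOXO letters GTAAACA, on either strand, were in 2 of 31 (Pik3cg and Akt1; 6.45% against 4.05%), and the GC-box letters GGGGCGG, on either strand, were in 18 of 31 (58.1% against 25.5%). These motifs were chosen after the promoters had been looked at, and a match is a description of letters, not of binding. The background windows were not limited to the genes tested here, and no comparison with genes of like level was made. These percentages therefore cannot be read as a trait of the pathway.

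Ddit4, which encodes REDD1, an inhibitor of mTORC1 induced by stress and glucocorticoids (ENSMUSG00000020108, chromosome 10, 59949669 to 59951834), was the member with the widest spread. It was taken up in full after its values were seen. It had 50.9, 38.2 and 20.2 CPM in NM1 KO and 33.1, 54.2 and 27.1 CPM in NM1 WT, or -0.07 on the log2 scale (SE 0.31, adjusted p = 0.942, edgeR). Its coefficients of variation were 42.4% (NM1 KO) and 37.2% (NM1 WT), and the highest library was 2.69 times the lowest. The 3 libraries with Y-linked counts held its 3 highest values, with a mean of 47.8 CPM against 26.8 CPM in the 3 without.

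The state of the Y-linked genes was therefore set beside every member, a split made after the data were seen. Values did not overlap between the libraries with and without Y-linked counts for 7 of 34 members, beside 14.5% of all tested genes. Pik3cb, Pdpk1, Rheb, Ddit4, Rraga and Rragc were higher in the libraries with them and Nprl3 was lower. In a fit with both genotype and Y-linked state, 32 genes, or 0.212%, passed for the state, and Ddit4 was the one member among them (log2 difference 0.99, adjusted p = 0.0487, edgeR). The values of Ddit4 had themselves prompted the split, so its p-value is not an independent test. With 1 library left out at a time the log2 difference of Ddit4 ran from 0.84 to 1.14. The adjusted p stayed under the threshold without NM1 KO 2 (0.0199) or NM1 WT 1 (0.0334). It was over it without NM1 KO 1 (0.0785), NM1 WT 3 (0.158), NM1 WT 2 (0.229) or NM1 KO 3 (0.235). The other 8 glucocorticoid-induced genes on the list summed to 673, 646 and 308 CPM in NM1 KO and 474, 685 and 375 CPM in NM1 WT. The order of the 6 libraries in this sum is that of Ddit4, but among the 8 genes only Tsc22d3 had it. Tsc22d3 was the largest part of the sum, at 133.1 to 274.5 CPM. Errfi1 and Sgk1 were highest in NM1 KO 2, and Per1, Klf9, Dusp1 and Zbtb16 in NM1 KO 1. Fkbp5 was lowest in NM1 WT 3. A shared cause was not tested. With 6 mice, the Y-linked state and other differences between the animals cannot be told apart.

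**Figure D5:**
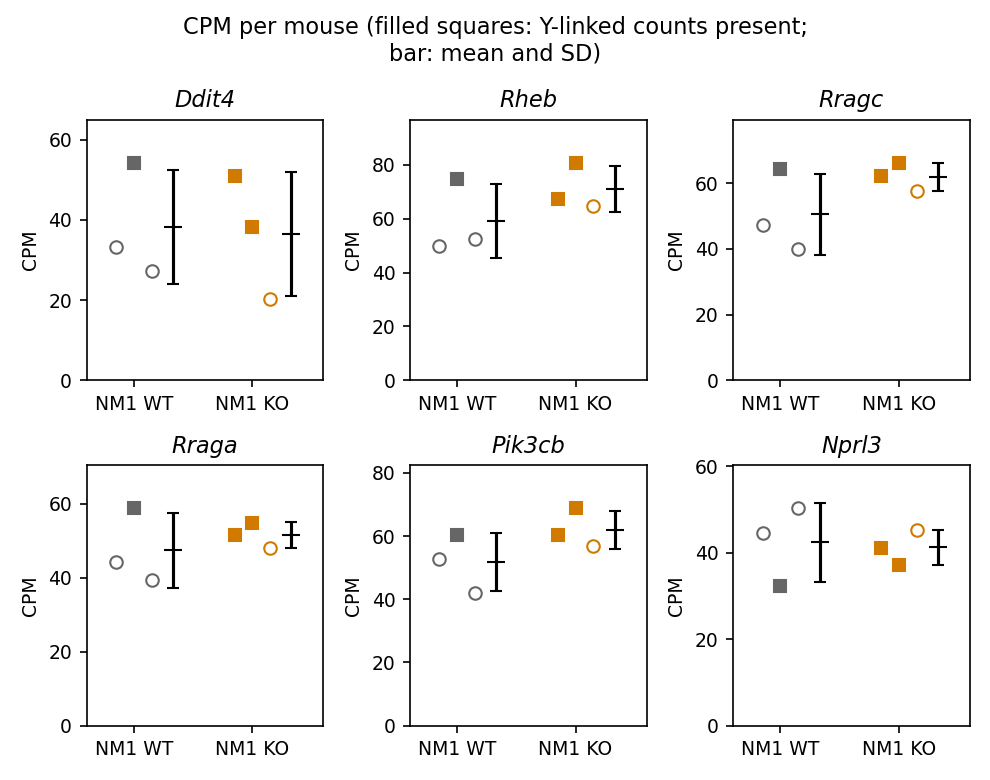
CPM in each mouse for Ddit4, Rheb, Rragc, Rraga, Pik3cb and Nprl3, with NM1 WT in grey and NM1 KO in orange, filled squares for libraries with Y-linked counts, open circles for those without, and a bar for the mean and SD of each genotype. Ddit4 lies at 38.2 CPM or more in all filled squares and at 33.1 CPM or less in all open circles.

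The genotypes were also set side by side within each Y-linked state. For members whose genotypes do not overlap the sign within a state is fixed by that, so only the sizes are of note. Log2 ratios of NM1 KO to NM1 WT were -0.57 with and -0.34 without Y-linked counts for Pik3cd and 0.36 and 0.34 for Pik3r1. They were 0.36 and 0.40 for Mtor, 0.15 and 0.16 for Rictor, 0.20 and 0.47 for Rps6kb1, 0.19 and 0.40 for Eif4e, and 0.12 and 0.40 for Foxo3. For Eif4ebp1 they were -0.67 and -0.03, so its difference was nearly all in the libraries with Y-linked counts. Each state holds a single mouse of 1 genotype, and no test was made within it. Over all members the sign was the same in both states for 16 of 34, which includes the 7 whose sign was fixed. The share over all tested genes was not computed, so this count has no background. The genotype difference of Ddit4 beside the state was -0.43 (adjusted p = 0.306, edgeR; -0.07 without the state in the fit).

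Upstream of the members, Igf1r, the receptor of insulin-like growth factor 1 and an activator of PI3K, had 21.8, 12.9 and 18.9 CPM in NM1 KO and 33.9, 28.6 and 30.1 CPM in NM1 WT. The genotypes did not overlap, and its log2 fold change of -0.78 (SE 0.20) had an adjusted p of 0.0944 in edgeR's test. Irs2, the adaptor of the insulin and IGF1 receptors, had 6.35, 6.72 and 7.13 CPM against 14.9, 9.62 and 13.9 CPM, also without overlap (log2 fold change -0.93, SE 0.25, adjusted p = 0.106, edgeR). Neither passed. Among 8 further PI3K subunits and 7 lipid and AKT phosphatases 0 passed (8 of 8 and 7 of 7 tested, edgeR; 1 in each list at an unadjusted p under 0.05).

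Beside the members, 0 of 10 other AKT branch genes and 0 of 32 other amino acid and energy inputs passed, with 3 and 5 at an unadjusted p under 0.05, a mark passed by 16.8% of all tested genes (0.776% passed adjusted). Of those 3 AKT branch genes, 2 were higher and 1 lower in NM1 KO, and of those 5 inputs 4 were higher and 1 lower. Nearest was Lamtor4, the lower one of the inputs and a subunit of the same lysosomal anchor as Lamtor1. It had 172, 119 and 144 CPM in NM1 KO and 270, 202 and 271 CPM in NM1 WT, without overlap, and its log2 fold change of -0.77 (SE 0.17) had an adjusted p of 0.0535 in edgeR's test. Foxo4, an X-linked FOXO factor, had 82.2, 89.99 and 99.7 CPM against 66.3, 65.0 and 66.7 CPM, also without overlap (log2 fold change 0.46, SE 0.12, adjusted p = 0.108, edgeR).

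Downstream, no target gene on the lists passed, which at a background of 0.776% says little for lists of this size. The counts were 0 of 18 FOXO targets (6 at an unadjusted p under 0.05), 0 of 25 lysosomal TFEB targets (3), 0 of 15 sterol genes driven by SREBP (3), 0 of 15 ATF4 targets (3), 0 of 9 tested translation genes (0), 0 of 9 glucocorticoid-induced genes (0) and 0 of 19 autophagy genes (2). The unadjusted background was 16.8% of all tested genes. The FOXO targets, sterol genes and ATF4 targets lay above it, and the TFEB targets and the translation, glucocorticoid-induced and autophagy genes below. The lists are small and none was tested against this background, so these positions are not read as results. Of the 6 FOXO targets at that mark, 4 were higher and 2 lower in NM1 KO. The FOXO target nearest the threshold was Cdkn1b, the cell cycle inhibitor p27, with 203, 230 and 189 CPM against 152, 153 and 132 CPM (log2 fold change 0.51, SE 0.13, adjusted p = 0.0944, edgeR). Irs2, also on that list, came next and lay the other way (log2 fold change -0.93, adjusted p = 0.106, edgeR). Of the sterol genes 12 of 15 and of the ATF4 targets 11 of 15 had a log2 fold change below 0, as did 7507 of the 15069 tested genes, and the medians of these lists were -0.18 and -0.06. Mvd, an enzyme of the mevalonate pathway, had -0.62 (adjusted p = 0.122, edgeR). The medians of the FOXO and TFEB targets were 0.04 and -0.05, beside 0.00185 for all tested genes.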

How the data were processed

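The authors deposited raw read counts per Ensembl gene, 1 file per mouse, with no normalisation. The submitters' processing notes name HTSeq, HISAT2 2.0.4, Trimmomatic 0.36, SAMtools 0.1.19 and FastQC, with builds GRCm38 and mm10. For the annotation release, strandedness and HTSeq settings, values were not given in the sources used here. Symbols, positions and exon lengths came from GENCODE M21, which matched 46091 of 46603 genes. Genes were kept by filterByExpr (15069, 99.9% of counts), scaled by TMM and tested with edgeR 4.0.16 (quasi-likelihood, R 4.3.3, genotype the only term). P-values were adjusted by Benjamini-Hochberg across the 15069 genes, and 0.05 was the threshold. Intervals are 95%. CPM per kilobase is CPM over the union of exons. The pipeline was tested on simulated data. Alternatives were other scalings, filters and tests (DESeq2 1.42.0, limma 3.58.1 voom), halved counts, a replicate block, the Y-linked state and each library left out. The members and lists were chosen with earlier results of these data known. Full values go to members that passed the threshold or did not overlap between genotypes; Eif4ebp1, Rheb, Rragc, Pik3r5, Rptor, Akt1, Akt2, Tfeb, Lamtor1 and Ddit4 were added after their values were seen. From each other list, 1 to 3 genes of smallest p were eligible; some results are not reported here.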

Additional observations from a re-analysis of the deposited data

How the results depend on the processing

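The count of members past the threshold was 0 under all 15 alternative fits, and the smallest adjusted p of a member in any of them was 0.0659 (Pik3cd with no low-count filter; its adjusted p ran up to 0.565). The count over all genes was 117 and moved to 1138 with no low-count filter, 794 with DESeq2, 37 with limma-voom, 421 with the replicate block and 60 once the Y-linked state was added to the fit, and ran from 26 to 344 with 1 library left out. The lowest of these, 26, left out NM1 WT 1, and the highest, 344, left out NM1 WT 2; leaving out NM1 WT 3 gave 30 and leaving out NM1 KO 2 gave 40. The split of higher and lower genes was 89 and 28, but 400 and 394 with DESeq2, 621 and 517 without the filter, 229 and 192 with the block, and 138 and 206 without NM1 WT 2. The cause of these shifts was not tested. Deviations of libraries with the same replicate number correlated at 0.0636, 0.115 and 0.0609, so the numbers were not taken to pair the mice; each library correlated best with its own number, which is a hint from the data, not the design. With the replicate block 8 members had an unadjusted p under 0.05. The median of the activators ran from 0.0563 to 0.187 with 1 library left out. Of 510 member values 43 changed sign, in 15 members whose main log2 fold change was at most 0.132 in size. These were -0.00451 for Rptor and -0.00133 for Ulk1 with RLE scaling, 0.0134 for Pik3ca and 0.029 for Rps6kb2 with total-count scaling, 0.00591 for Rps6kb2 with no filter, -0.000726 for Rptor with a minimum of 1 CPM, -0.00421 for Rptor and -0.00133 for Ulk1 with DESeq2, 0.0358 for Rps6kb2 with limma-voom, -0.00245 for Rptor with halved counts, 0.0202 for Rps6kb2 with the replicate block, and -0.0118 for Akt1s1, 0.149 for Rps6kb2 and 0.106 for Nprl3 with the Y-linked covariate. With 1 library left out, log2 fold changes ran from -0.0507 to 0.0749 for Rptor, -0.144 to 0.167 for Depdc5, -0.0707 to 0.109 for Akt1s1, -0.206 to 0.125 for Rps6kb2, -0.198 to 0.0938 for Nprl3, -0.0787 to 0.063 for Pik3ca, -0.0825 to 0.206 for Pik3cg, -0.33 to 0.0368 for Deptor, -0.115 to 0.238 for Eif4ebp2, -0.389 to 0.279 for Ddit4, -0.241 to 0.0288 for Nprl2, -0.0829 to 0.0753 for Ulk1, -0.246 to 0.0119 for Akt1, -0.0413 to 0.0567 for Akt2 and -0.00499 to 0.307 for Rraga. Members that kept their sign but moved by over 1.5 times ran from -0.584 to -0.291 for Pik3cd, -0.447 to -0.0976 for Pik3r5, 0.156 to 0.474 for Rheb, 0.147 to 0.511 for Rragc, 0.125 to 0.391 for Pik3cb, 0.0959 to 0.227 for Pdpk1, -0.212 to -0.0881 for Lamtor1, -0.297 to -0.035 for Tfeb, 0.0132 to 0.18 for Foxo1, -0.191 to -0.0201 for Tsc1, -0.289 to -0.00128 for Tsc2 and -0.103 to -0.0202 for Mlst8.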
